A study of Rattus norvegicus with 40 samples.

Results

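Genes for the handling of heme and for antioxidant defence were followed in rat carotid arteries after balloon injury. They were Hmox1, Hp and Fth1 for heme, hemoglobin and iron, and Sod2, Nqo1, Txnrd1, Gclc and Gclm for defence against oxidants. They were found on the array through every probe set annotated to exactly 1 of these 8 symbols, which gave 12 of the 8740 probe sets that are not controls. Of these, 8 probe sets passed a filter on dim values and were tested among 5827 probe sets, and they cover 6 of the 8 genes. No probe set names Fth1 alone, since the only one that lists it also lists a pseudogene, so no value is given for Fth1. The single probe set of Gclc read 2.9 to 19.4 on all 40 arrays, below the floor of 23.3 that was set for every probe set, and was not tested.

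Hemoglobin that leaves broken red cells is bound by haptoglobin, the product of Hp, which macrophages take up. Heme oxygenase, the product of Hmox1, opens the heme ring and releases iron, carbon monoxide and biliverdin, and ferritin stores the iron. The remaining genes encode enzymes that remove superoxide or keep glutathione, thioredoxin and quinones reduced, and several of them, like Hmox1, carry antioxidant response elements, short DNA motifs bound by the transcription factor Nrf2.

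The study asked how tissue plasminogen activator (tPA), a protease that turns plasminogen into plasmin, acts on an artery early after injury. All rats were male Wistar-Kyoto animals of 3 months. Under ketamine anaesthesia a Fogarty balloon catheter injured the left common carotid artery, and its outer side then received 500 µl of plain pluronic gel or gel holding recombinant tPA at 20 nmol/kg. Injured left arteries and uninjured right arteries of these rats were taken on day 1 or day 4, which gave 8 groups of 3 arrays. A sham operation was followed by 4 arrays of the left artery on day 1 and 6 on day 4, and 6 more came from intact rats. Whether sham arteries received gel is not given in the sources used here, so injury and gel cannot be told apart against sham. Vessels from 3 rats were pooled for each array, so p-values measure the spread between pools, and the labels do not tie right and left arteries to the same animals. RNA of the whole vessel was measured, in which more cells of a type and more RNA per cell cannot be told apart.

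The trimmed mean was nearly the same on every array (500.34 to 500.76 intensity units), and the median intensity was 103.2 to 168.3. Precision is limited by how few arrays each group holds. Acta2, smooth muscle actin, read at least 4835.1 on all 40. Labels were kept as deposited, but 4 tPA arrays stood apart from their groups. An index of the injury response was built from probe sets called in day 4 left gel against sham arteries, 654 higher and 460 lower. Only the genes of heme handling and antioxidant defence named at the start were left out of it. Called genes of the related lists and called cell markers, described below, stayed in it. The index was 2.20 to 2.29 for left gel on day 4 and -1.51 to -0.22 for sham. Among left tPA arrays it was -0.06 for replicate 2 of day 1 and -0.56 for replicate 1 of day 4, with the others at 0.84 or more. Among right tPA arrays it was 1.33 for replicate 2 of day 1 and 1.07 for replicate 1 of day 4, with the others at -0.11 or less. The main tPA results are therefore also given without these 4 arrays. Since the arrays were chosen by this index, leaving them out raises injury-responsive genes in left tPA arteries and lowers them in right ones by construction, and each tPA group then holds 2 arrays, so a call gained in this way is a description and no independent support. Left gel replicates 1 and 3 of day 1 were the most alike of 60 pairs of arrays within a group (SD of log2 differences 0.45, median 0.837 over pairs), and whether they were independent was not tested. Differences are given in log2 units as the first group named minus the other, and adjusted p-values are those of limma with Benjamini-Hochberg adjustment over all tested probe sets of a comparison. A change is called where the adjusted p is under 0.05.

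**Figure D1:**
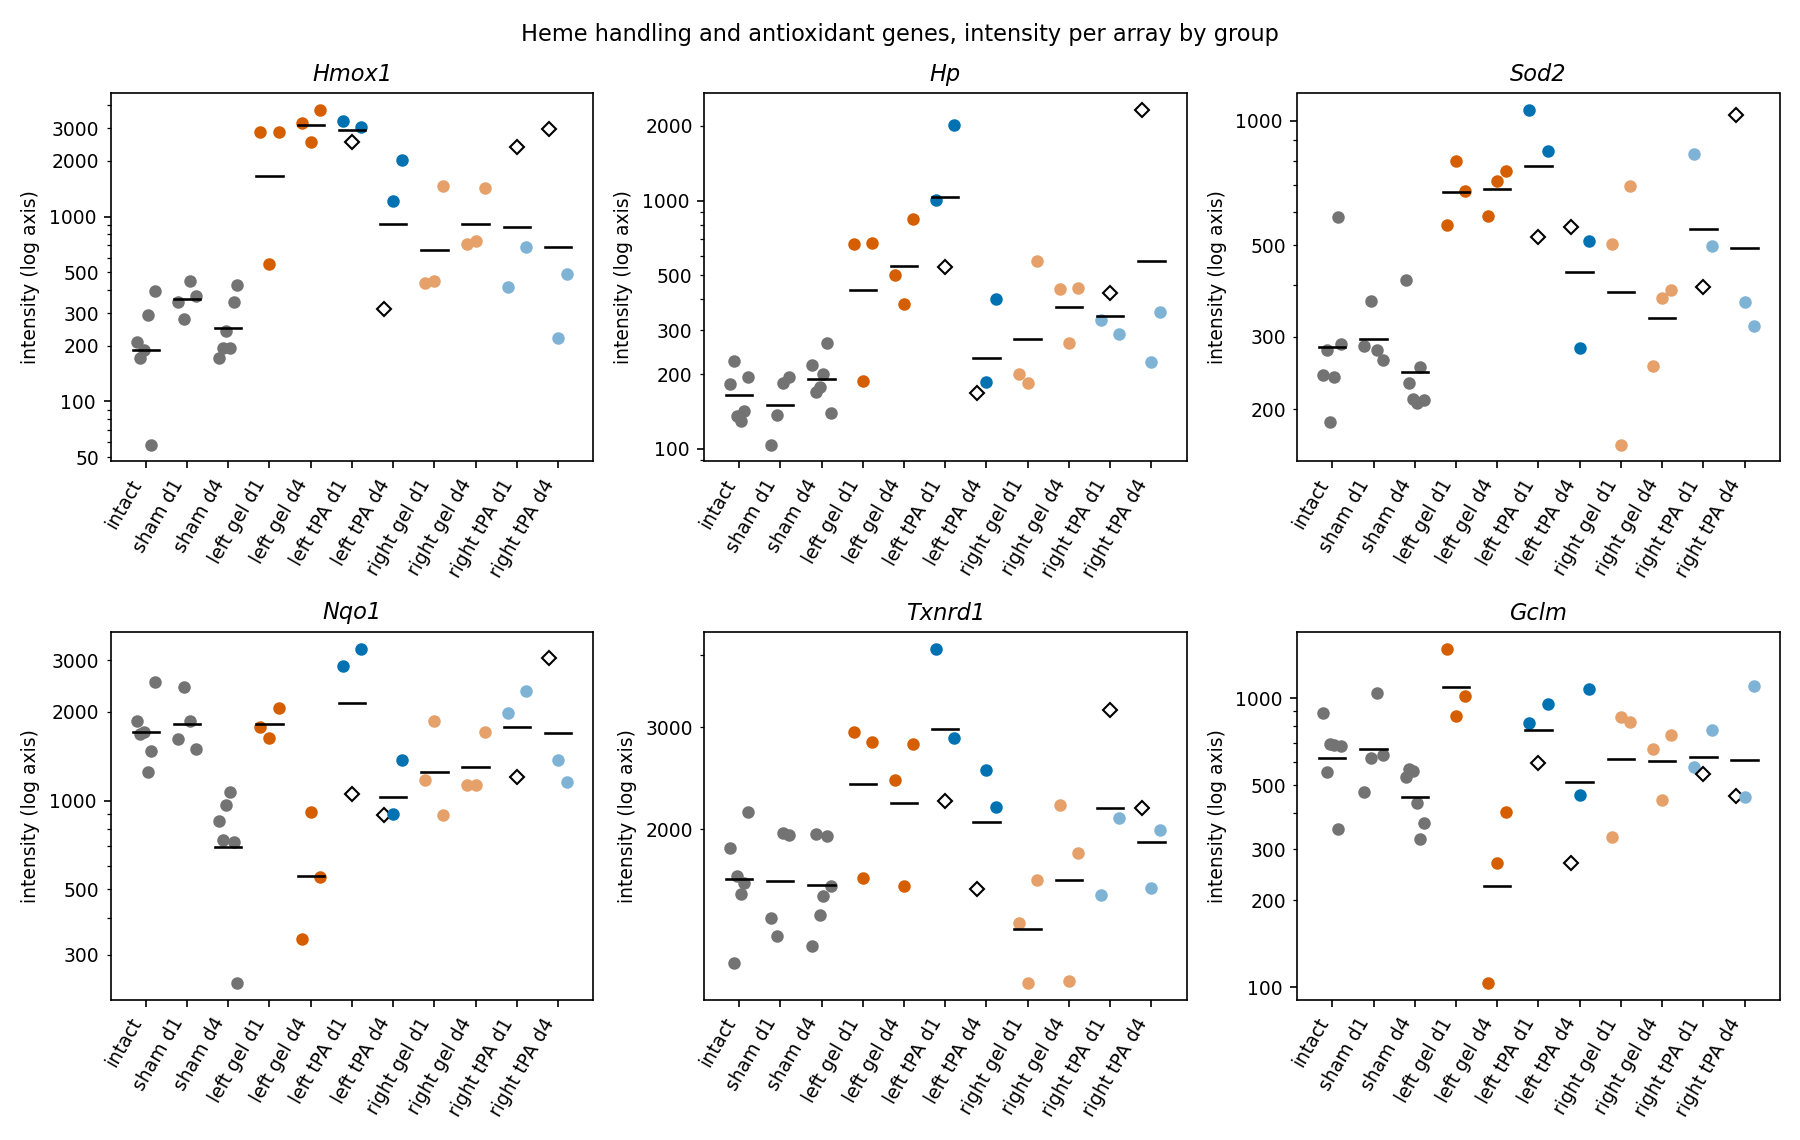
Intensity (log axis) of the brightest probe set of each of the 6 tested genes on each of the 40 arrays, by group (d1 and d4, days 1 and 4); black bars are means of log2 values, and open diamonds mark the 4 tPA arrays that stood apart. Hmox1 read 2521.0 to 3304.2 under tPA on day 1 and 2530.2 to 3762.3 under gel on day 4 in left arteries, against at most 449.2 in sham and intact arrays.

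Hmox1 showed the widest range of the tested genes. In intact arteries it read 58.3 to 395.4 with a median of 199.4 (n = 6). Sham arteries read 345.7, 280.7, 449.2 and 373.5 on day 1 and 172.1 to 425.7 with a median of 218.4 on day 4. The sham operation did not move it past the threshold, with differences from intact of 0.91 on day 1 and 0.39 on day 4 (adjusted p = 0.605 and 0.824).

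In injured arteries under gel Hmox1 read 2882.9, 555.3 and 2854.0 on day 1 and 3197.5, 2530.2 and 3762.3 on day 4. All 6 arrays lay above every sham array of their day, with replicate 2 of day 1 far below its group. On day 4 Hmox1 rose 12.6-fold, from 7.96 ± 0.52 (SD, n = 6) in sham to 11.61 ± 0.29 (SD, n = 3) on the log2 scale, a difference of 3.65 (95% interval 2.33 to 4.98, limma adjusted p = 0.000181). On day 1 the difference was 2.22 (95% interval 0.78 to 3.65) and did not pass (adjusted p = 0.082). Without left gel replicate 2 of day 1 it was 3.01 and passed (adjusted p = 0.0361). In that array the summed level of 4 neutrophil markers was 438.8, against 3866.4 and 3921.3 in the other left gel arrays of day 1 and 132.9 to 289.3 in sham. Left gel arrays of day 4, all high in Hmox1, had sums of 308.5 to 578.3. The part of these cells in the result was not tested.

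Under tPA, injured arteries read 3304.2, 2521.0 and 3068.8 for Hmox1 on day 1 and 314.6, 1206.7 and 2029.9 on day 4. On day 1 the 3 arrays were close together and all above sham, and on day 4 they spread widely and overlapped sham. The day 1 rise was 8.25-fold (3.04, 95% interval 1.61 to 4.48, adjusted p = 0.014), and 3.16 without the 4 arrays that stood apart (adjusted p = 0.000594). It did not pass without left tPA replicate 1 or replicate 3 of day 1 (adjusted p = 0.0518 and 0.069), nor with the 3 most alike array pairs averaged (adjusted p = 0.144). The day 4 difference was 1.89 (adjusted p = 0.0757), and it was 2.66 and passed once the 4 arrays were left out (adjusted p = 0.00166) or left tPA replicate 1 of day 4 alone (adjusted p = 0.0112).

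Right arteries, which received no balloon, gave Hmox1 readings of 437.1, 449.8 and 1457.9 under gel on day 1 and 713.7, 738.2 and 1434.6 on day 4. With tPA on the left side they read 415.5, 2373.4 and 680.7 on day 1 and 2984.8, 220.1 and 492.0 on day 4. The 3 right gel arrays of day 4 lay above all 6 sham arrays, with a difference of 1.88 that did not pass (adjusted p = 0.067, and 0.0119 with the 4 tPA arrays left out of the shared spread). The array that reads 2373.4 and the one that reads 2984.8 are those of the right tPA groups that stood apart, and without them the differences of right tPA arteries from sham moved from 1.29 to 0.57 on day 1 and from 1.47 to 0.41 on day 4, none of which passed. From the highest mean to the lowest, the order was left gel day 4, left tPA day 1, left gel day 1, left tPA day 4, right gel day 4, right tPA day 1, right tPA day 4, right gel day 1, sham day 1, sham day 4 and intact. All neighbours in that order overlapped in their readings.

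A second probe set of Hmox1 was too dim to be tested, with 23 of its 40 values at the floor. It read 58.5 to 139.7 in left gel arrays of day 4 and 38.9 to 105.9 in left tPA arrays of day 1, above sham of day 1 (9.1 to 21.9), while sham of day 4 reached 99.7. In left gel arrays of day 1 it read 13.2 to 16.4, all under the floor, where the brighter probe set read up to 2882.9. The probe sets therefore disagree for that group. With no filter on dim probe sets, the second probe set passed on day 4 under gel against sham (1.45, adjusted p = 0.0298).

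Hp encodes haptoglobin, an acute phase plasma protein made mainly by liver. It read 129.8 to 226.0 in intact arteries (median 162.4, n = 6), 103.8 to 193.8 in sham of day 1 and 138.7 to 265.6 in sham of day 4 (medians 160.2 and 188.0). Injured arteries under gel read 666.9, 187.3 and 671.6 on day 1 and 502.9, 382.1 and 839.3 on day 4. Replicate 2 of day 1 lay within the sham range, and the other 5 arrays lay above it. The day 4 rise was 2.86-fold (1.52, 95% interval 0.50 to 2.54, adjusted p = 0.0299). It did not pass without left gel replicate 1, left gel replicate 3 or sham replicate 6 of day 4 (adjusted p = 0.0752, 0.177 and 0.0549). On day 1 the difference was 1.55 (adjusted p = 0.123), and it was 2.16 without left gel replicate 2 (adjusted p = 0.0473).

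Under tPA, Hp read 1004.9, 538.5 and 2018.2 in injured arteries on day 1 and 168.0, 184.9 and 400.2 on day 4. Every day 1 array lay above sham, and 2 of the 3 day 4 arrays lay within the sham range. The day 1 rise was from 7.23 ± 0.42 (SD, n = 4) to 10.01 ± 0.95 (SD, n = 3), or 6.87-fold (2.78, 95% interval 1.68 to 3.88, adjusted p = 0.0066). It was 3.25 without the 4 arrays that stood apart (adjusted p = 1.76e-05), and the call ended without left tPA replicate 3 of day 1 (2.30, adjusted p = 0.069) and with the 3 most alike array pairs averaged (adjusted p = 0.114). The day 4 difference from sham was 0.28 (95% interval -0.74 to 1.30, adjusted p = 0.826), and 0.52 without the 4 arrays (adjusted p = 0.49). The difference between days of the tPA injury effect was -2.50 and did not pass (adjusted p = 0.0717), and without the 4 arrays it was -2.73 and passed (adjusted p = 0.0109).

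In right arteries Hp read 200.5, 183.7 and 571.6 under gel on day 1 and 440.5, 267.6 and 443.9 on day 4. Under tPA they read 330.4, 424.1 and 289.4 on day 1 and 2311.8, 224.1 and 356.0 on day 4. The day 1 difference of right tPA arteries from sham was 1.20 (adjusted p = 0.407), and 1.05 without the 4 arrays (adjusted p = 0.363). The value of 2311.8 was the highest of all 40 arrays and came from the array labelled right tPA day 4 replicate 1, whose summed neutrophil marker level, 7344.6, was also the highest. Left tPA day 1 replicate 3, second highest in Hp, had the second highest neutrophil marker level, 6163.1. These arrays also had the lowest 3'/5' ratios of the actin and GAPDH control probe sets among all 40, at 2.803 and 0.243 in the left tPA array and 4.951 and 0.333 in the right one. Their erythrocyte markers summed to 3061.0 in the left tPA array and 2176.7 in the right one. Such low sums also came from right tPA day 4 replicate 3 (2146.2), left tPA day 4 replicate 3 (2170.3) and right gel day 1 replicate 3 (1942.5). Hp read 356.0, 400.2 and 571.6 in these arrays, less than in the arrays above but more than in any sham array (at most 265.6). The part of these cells and of RNA quality was not tested.

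Sod2 encodes the manganese superoxide dismutase of mitochondria, which turns superoxide into hydrogen peroxide. Its probe set is of a kind that can detect more than 1 transcript. It read 186.8 to 585.4 in intact arteries (median 260.3, n = 6), 262.7 to 365.8 in sham of day 1 and 207.4 to 411.5 in sham of day 4 (medians 281.7 and 221.6). Injured arteries under gel read 560.7, 801.1 and 677.4 on day 1 and 589.0, 713.4 and 756.8 on day 4, all above every sham array. The day 4 rise was 2.77-fold, from 7.95 ± 0.38 (SD, n = 6) to 9.42 ± 0.19 (SD, n = 3), a difference of 1.47 (95% interval 0.70 to 2.24, adjusted p = 0.0053). On day 1 the difference was 1.19 (95% interval 0.35 to 2.02, adjusted p = 0.116), and it passed when the 4 tPA arrays, which enter there only in the pooled variance, were left out (adjusted p = 0.0441).

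Under tPA, Sod2 read 1061.3, 522.8 and 844.4 on day 1 and 552.7, 281.8 and 512.5 on day 4. The day 1 arrays lay above sham and the day 4 arrays overlapped it. The day 1 rise of 1.39 (2.63-fold, adjusted p = 0.0429) was near the threshold: it did not pass under 7 of 14 other settings (adjusted p = 0.0546 to 0.241), among them median scaling (1.11), nor in 6 of 7 fits without 1 array, where leaving out left tPA replicate 2 alone kept it. Without the 4 arrays that stood apart it was 1.68 (adjusted p = 0.00667). On day 4 the difference was 0.81 (adjusted p = 0.206), and 0.63 without the 4 arrays (adjusted p = 0.314). In right arteries Sod2 read 503.5, 164.2 and 694.9 under gel on day 1, 254.8, 373.1 and 388.8 under gel on day 4, and 831.3, 396.9 and 496.2 under tPA on day 1. On day 4 under tPA it read 1032.5, 363.5 and 318.1, the first of these in the array that stood apart. Differences of right arteries from sham lay between 0.39 and 1.00, and none passed.

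**Figure D2:**
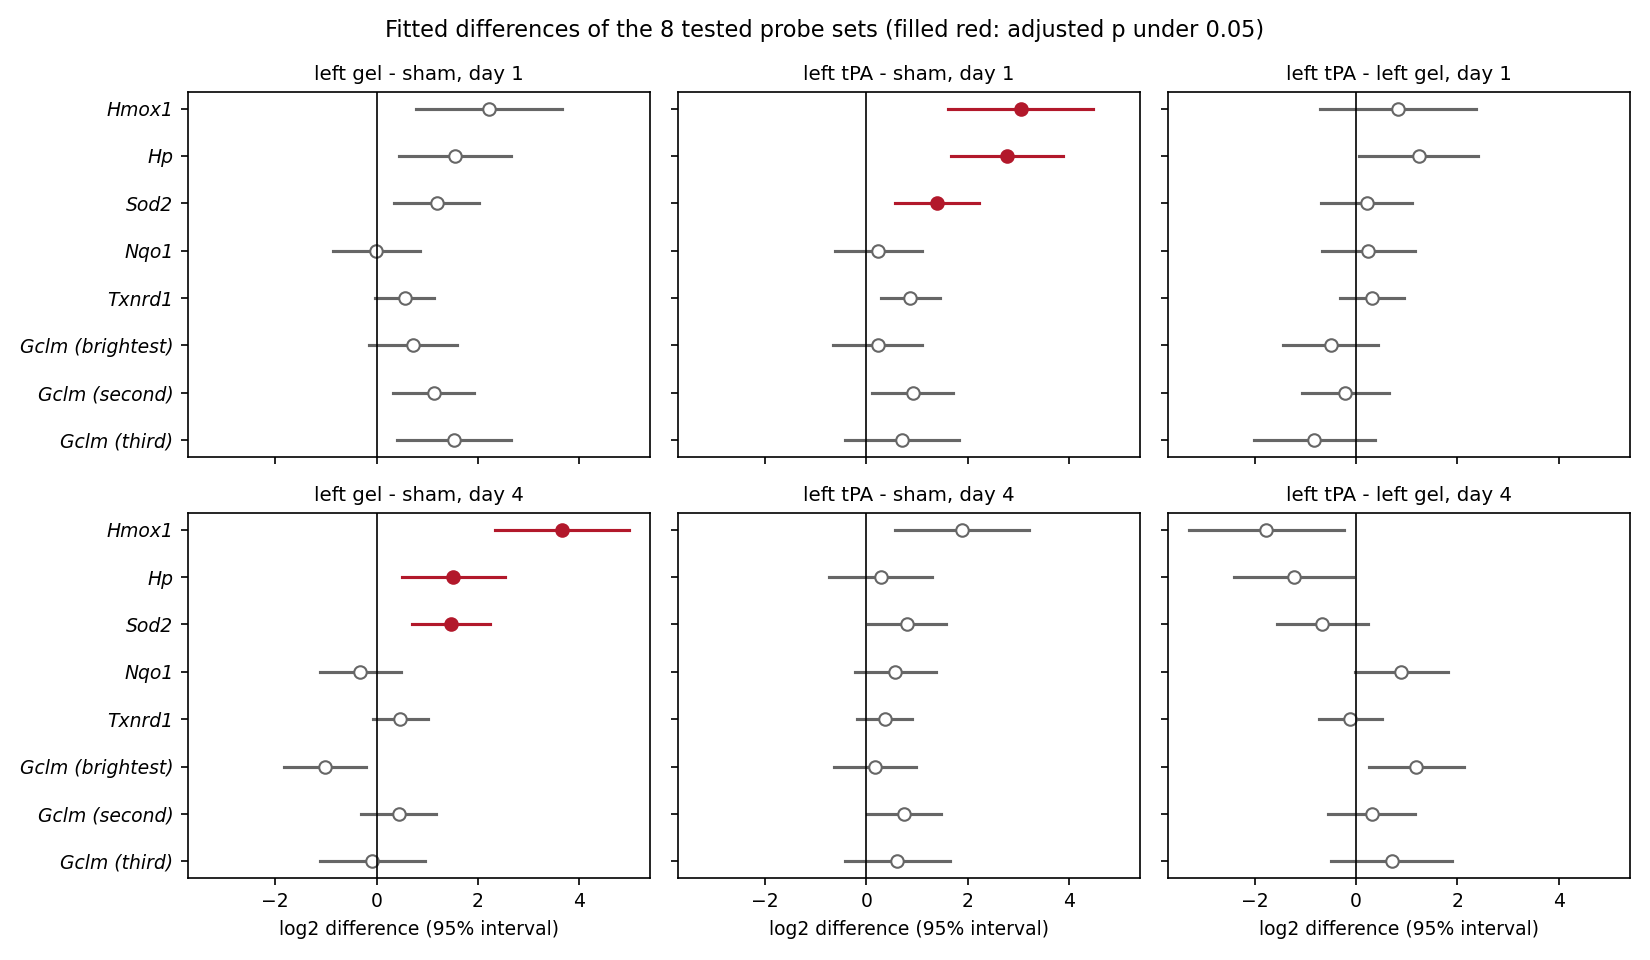
Fitted log2 differences of the 8 tested probe sets with 95% intervals, in 6 comparisons of left arteries; filled red points have a limma adjusted p under 0.05. Against sham, Hmox1, Hp and Sod2 are red in the gel panel of day 4 and in the tPA panel of day 1, and no point is red where tPA and gel are compared.

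Over all 8 tested probe sets, gel and injury against sham called 3 higher and 0 lower on day 4, where 19.2% of all tested probe sets were called. On day 1 the count was 0, with 3.12% called over all probe sets, and 5 of the 8 had an unadjusted p under 0.05, all higher, as had 14.6% of all tested probe sets in either direction. For left tPA against sham, 3 were higher and 0 lower on day 1, against 4.43% of all, and 0 on day 4, against 5.87%, with 3 at an unadjusted p under 0.05, as had 21.5% of all. Without the 4 arrays that stood apart these counts were 5 on day 1 and 2 on day 4, against 11.7% and 18.1% of all. The median difference of the 6 genes was 0.95 and 0.97 for gel on days 1 and 4 and 1.13 and 0.47 for tPA, beside medians over all tested probe sets of -0.01, 0.02, 0.14 and 0.06. The gel and tPA comparisons of a day share their sham arrays. Scaling arrays to a common median shifted differences by at most 0.30, which it did between the days under gel (making the falls larger). It lowered the left tPA differences of day 1 from sham by 0.29, and those of left gel by 0.07 and 0.10.

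Some markers of other cells moved with these groups, and others did not. The summed level of 7 macrophage markers was 13549.0 to 17178.2 in left gel arrays of day 4 against 2850.7 to 4856.0 in sham, and 9880.8 to 20999.5 in left tPA arrays of day 1 against 6473.0 to 7330.4 in sham. Of these markers 5 of 7 were called higher in left gel arteries on day 4 and 1 of 7 in left tPA arteries on day 1. The 4 neutrophil markers summed to 308.5 to 578.3 in left gel arrays of day 4 against 102.3 to 302.4 in sham. In left tPA arrays of day 1 they summed to 264.8 to 6163.1 against 132.9 to 289.3, with 0 of 4 called in either comparison. The 4 erythrocyte markers, which include hemoglobin beta genes, summed to 10394.5 to 12016.2 in left gel arrays of day 4, inside the sham range of 8891.2 to 18062.0, and to 3061.0 to 14208.6 in left tPA arrays of day 1 against 10887.0 to 15666.4 in sham, with 0 of 4 called in either. Of 5 smooth muscle markers, 2 were called lower under gel on day 4 and 1 under tPA on day 1. Adipocyte markers (7 tested) summed to 9931.4 to 13155.0 in left gel arrays of day 4 against 4683.1 to 6631.1 in sham, with 2 called higher and 1 lower. The 5 nerve markers summed to 3995.5 to 4981.6 against 5008.1 to 6797.9, with 0 called. Neither sum overlapped sham there, whereas in left tPA arrays of day 1 both did. Skeletal muscle markers summed to 728.0 to 15468.8 in left tPA arrays of day 1 against 1350.7 to 1404.8 in sham. In left gel arrays of day 4 they summed to 767.6 to 1743.1 against 1669.4 to 2413.7. Endothelium markers summed to 570.1 to 1912.5 in left gel arrays of day 4 against 415.2 to 698.7 in sham. In left tPA arrays of day 1 they summed to 435.7 to 732.5 against 380.0 to 718.9. No tested macrophage, neutrophil, erythrocyte or smooth muscle marker read 0 on any array. The actin 3'/5' ratio, which rises as RNA loses its 5' end, was 7.377 to 8.093 in left gel arrays of day 4 and 11.825 to 23.692 in sham. In left tPA arrays of day 1 it was 9.099, 17.813 and 2.803, against 16.259 to 21.114 in sham of that day. The part of these cells and of RNA quality in the results was not tested.

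Direct comparison of tPA with gel in the injured artery called 0 of the 8 probe sets on either day, where 0.12% of all probe sets were called on day 1 and 0.12% on day 4. On day 1, Hp differed by 1.23 (95% interval 0.06 to 2.41, adjusted p = 0.349) and Hmox1 by 0.83 (95% interval -0.71 to 2.36, adjusted p = 0.646), and 1 of 8 probe sets had an unadjusted p under 0.05, against 13.3% of all. On day 4 Hmox1 differed by -1.77 (95% interval -3.30 to -0.24, adjusted p = 0.529), and Hp by -1.23 (95% interval -2.41 to -0.05, adjusted p = 0.594). All 3 tPA arrays read below all 3 gel arrays for Hmox1 and for Sod2 on day 4. The brightest Gclm probe set differed by 1.19 on day 4 (adjusted p = 0.427), and 3 of 8 had an unadjusted p under 0.05, against 7.77% of all. Without the 4 arrays, Hp differed by 1.70 on day 1 (adjusted p = 0.0699), and Hmox1 differed by -0.996 on day 4 (adjusted p = 0.738). The difference between the days of the tPA against gel effect passed for 0 of 8, against 0.0858% of all, with 3 at an unadjusted p under 0.05 (12.5% of all). For Hp it was -2.47 (adjusted p = 0.17), and -2.70 without the 4 arrays, which passed (adjusted p = 0.0359).

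Txnrd1 encodes the cytosolic thioredoxin reductase, which uses NADPH to keep thioredoxin reduced. It read 1176.1 to 2145.4 in intact, 1306.6 to 1967.3 in sham day 1 and 1258.4 to 1964.2 in sham day 4 arteries. Injured arteries read 2944.0, 1649.3 and 2831.1 under gel on day 1, 2433.5, 1598.9 and 2807.2 under gel on day 4, 4094.2, 2237.6 and 2877.8 under tPA on day 1, and 1580.6, 2525.1 and 2182.5 under tPA on day 4. All 3 left tPA arrays of day 1 lay above sham, and the other 3 groups overlapped it. The difference was 0.87 in left tPA arteries on day 1 (95% interval 0.28 to 1.46, adjusted p = 0.074), and 1.07 without the 4 arrays, which passed (adjusted p = 0.0189). Differences from sham in the other injured groups were 0.56, 0.47 and 0.36 (gel on days 1 and 4 and tPA on day 4), and none passed. A second, untested probe set with 10 of 40 values at the floor read 76.8 to 182.5 in left tPA arrays of day 1, against 15.1 to 75.5 in sham. In left gel arrays of day 4 it read 70.5 to 137.4, also above sham of that day (15.9 to 63.0). It overlapped sham in left gel arrays of day 1 (56.2 to 100.2) and left tPA arrays of day 4 (19.7 to 124.4).

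Nqo1 and the brightest probe set of Gclm took another course. Nqo1 encodes a reductase that turns quinones into hydroquinones without a radical intermediate, and its probe set, like that of Sod2, can detect more than 1 transcript. Gclm encodes the modifier subunit of glutamate-cysteine ligase, which makes the first step of glutathione synthesis together with the catalytic subunit that Gclc encodes. Over the 11 group means, Nqo1 and the brightest Gclm probe set had a Pearson correlation of 0.859. With each gene taken by its brightest probe set, Gclm was the gene most like Nqo1 among 3545 genes by that measure. Correlations of the other Gclm probe sets were not computed. Both genes were read on the same arrays, so the value is a description. The 250 bases before the RefSeq start sites of these 2 genes in build GRCr8 are shown. The Gclm window is chr2:213031885-213032134 on the plus strand, and the Nqo1 window is chr19:52220268-52220517 on the minus strand. Each is written 5′ to 3′ along the gene, with capitals marking a match to the core of the antioxidant response element, TGACNNNGC, on either strand.
Gclm: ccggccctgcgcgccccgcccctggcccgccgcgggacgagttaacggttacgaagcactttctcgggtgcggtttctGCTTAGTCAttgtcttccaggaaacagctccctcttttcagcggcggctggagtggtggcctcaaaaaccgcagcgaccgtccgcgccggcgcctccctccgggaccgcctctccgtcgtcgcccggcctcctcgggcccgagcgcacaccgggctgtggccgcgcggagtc
Nqo1: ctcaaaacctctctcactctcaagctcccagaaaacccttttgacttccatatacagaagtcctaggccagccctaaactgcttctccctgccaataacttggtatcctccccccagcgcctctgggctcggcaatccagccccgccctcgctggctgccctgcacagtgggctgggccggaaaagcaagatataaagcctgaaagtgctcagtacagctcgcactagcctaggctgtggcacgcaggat
The Gclm window holds 1 match, which begins 172 bases before the start, and the Nqo1 window holds these letters nowhere. Bases farther from the start were not searched, so an element of Nqo1 outside the window would be missed. Among 33469 promoter windows of this length in the table, 10.1% hold a match. The windows of Sod2 and of 1 of 2 listed starts of Txnrd1 hold 1 match each, 35 and 78 bases before the start. The match is a description of letters, and no binding was measured.

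Nqo1 was lower on day 4 than on day 1 in sham arteries and in injured arteries under gel. It read 1250.0 to 2518.5 in intact arteries (median 1695.3, n = 6) and 1623.5, 2424.0, 1860.4 and 1501.3 in sham of day 1. Sham of day 4 read 239.9 to 1067.0 with a median of 791.7 (n = 6), and no array reached the lowest of day 1 or of intact arteries. The fall in sham was 2.62-fold (-1.39, 95% interval -2.12 to -0.67, adjusted p = 0.0247), and 1 of 8 probe sets was called there, against 5.01% of all. It did not pass without sham replicate 2 or 3 of day 1 (adjusted p = 0.091 and 0.081), nor with quantile normalization (adjusted p = 0.0538) or with the 3 most alike array pairs averaged (adjusted p = 0.282).

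Injured arteries under gel read 1773.9, 1629.7 and 2067.2 for Nqo1 on day 1 and 340.2, 912.5 and 552.1 on day 4, with no overlap. The fall was 3.27-fold, from 10.83 ± 0.17 to 9.12 ± 0.71 on the log2 scale (SD, n = 3 each), a difference of -1.71 (95% interval -2.63 to -0.79, adjusted p = 0.0306). Only the fit without left gel replicate 2 of day 4 kept it (adjusted p = 0.0236). Leaving out left gel replicates 1 and 3 of day 4 gave adjusted p = 0.196 and 0.085, and leaving out replicates 1, 2 and 3 of day 1 gave 0.0959, 0.0535 and 0.1. Averaging the 2 most alike arrays gave adjusted p = 0.105. Against sham of the same day the injured artery under gel differed by -0.01 on day 1 and by -0.32 on day 4 (adjusted p = 0.997 and 0.653), and the difference of these 2 effects did not pass (-0.32, adjusted p = 0.914).

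Under tPA, Nqo1 read 2860.5, 1053.7 and 3276.7 in injured arteries on day 1 and 889.9, 901.5 and 1370.7 on day 4. The groups overlapped through the array labelled left tPA day 1 replicate 2, and the difference between days was -1.06 (adjusted p = 0.277), and -1.46 without the 4 arrays (adjusted p = 0.0841). Right arteries read 1174.1, 1861.1 and 892.2 under gel on day 1 and 1128.4, 1132.7 and 1714.4 on day 4, and under tPA 1985.5, 1202.9 and 2352.7 on day 1 and 3049.3, 1377.9 and 1158.4 on day 4. All 6 right arrays of day 4 lay above all 6 sham arrays of that day. The differences from sham, 0.91 under gel and 1.29 under tPA, did not pass (adjusted p = 0.154 and 0.0832). A second Nqo1 probe set read 6.7 to 136.8 with 20 of 40 values at the floor and was not tested.

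Gclm had 3 tested probe sets. The brightest read 353.4 to 886.8 in intact arteries, 473.9 to 1038.0 in sham of day 1 and 324.9 to 566.6 in sham of day 4. Injured arteries under gel read 1481.9, 866.5 and 1020.0 on day 1 and 103.3, 269.3 and 403.7 on day 4. The groups did not overlap, and the day 4 array that read 103.3 was the lowest of all 40. The fall was 4.89-fold (-2.29, 95% interval -3.23 to -1.35, adjusted p = 0.00336), from 10.10 ± 0.40 to 7.81 ± 1.01 (SD, n = 3 each). Without left gel replicate 1 of day 4, the array that read 103.3, it was -1.73 and did not pass (adjusted p = 0.0617).

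The other Gclm probe sets gave smaller differences that did not pass. The second read 425.8, 531.8 and 519.6 in left gel arrays of day 1 and 173.6, 231.8 and 342.8 on day 4 (-1.03, adjusted p = 0.174). The third read 98.2, 277.7 and 103.0 on day 1 and 51.8, 60.4 and 54.1 on day 4 (-1.35, adjusted p = 0.209). All 3 probe sets separated the days without overlap, and the mean of the 3 gave -1.56 (adjusted p = 0.0166). In all, 2 of 8 probe sets were called between the days under gel, both lower, against 3.21% of all. Skeletal muscle markers moved with these days: 6 of 8 were called higher in left gel than in sham arteries on day 1 and 0 of 8 on day 4. Their summed level was 17542.1 to 37881.4 in left gel arrays of day 1, 767.6 to 1743.1 on day 4 and 1350.7 to 1404.8 in sham of day 1. The actin 3'/5' ratio separated the days too, at 13.359 to 19.387 under gel on day 1 and 7.377 to 8.093 on day 4. The part of muscle and of RNA quality in the values of Gclm and Nqo1 was not tested.

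Against sham the Gclm probe sets disagreed on day 4. Left gel arteries differed from sham by -1.02 in the brightest (adjusted p = 0.07), 0.44 in the second (adjusted p = 0.464) and -0.08 in the third (adjusted p = 0.948). The brightest passed, as lower, with quantile normalization (-1.17, adjusted p = 0.0266), with array weights (-1.49, adjusted p = 0.000893) and without left gel replicate 3 of day 4 (-1.45, adjusted p = 0.0251). On day 1 all 3 were higher, by 0.72, 1.12 and 1.52, and none passed (adjusted p = 0.475, 0.119 and 0.139). The second probe set read above every sham array in the 3 left gel arrays of day 1, and it passed once the 4 tPA arrays were left out (adjusted p = 0.0409). Under tPA the brightest read 818.3, 598.3 and 951.8 on day 1 and 268.3, 461.4 and 1079.5 on day 4, which overlapped sham on both days. The second read 432.7, 236.2 and 745.6 on day 1 and 145.8, 386.9 and 463.3 on day 4. On each day the lowest value of both probe sets came from the array that stood apart, and without the 4 arrays the second probe set was higher than sham by 1.34 on day 1 and by 1.26 on day 4 and passed on both (adjusted p = 0.0213 and 0.0157).

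**Figure D3:**
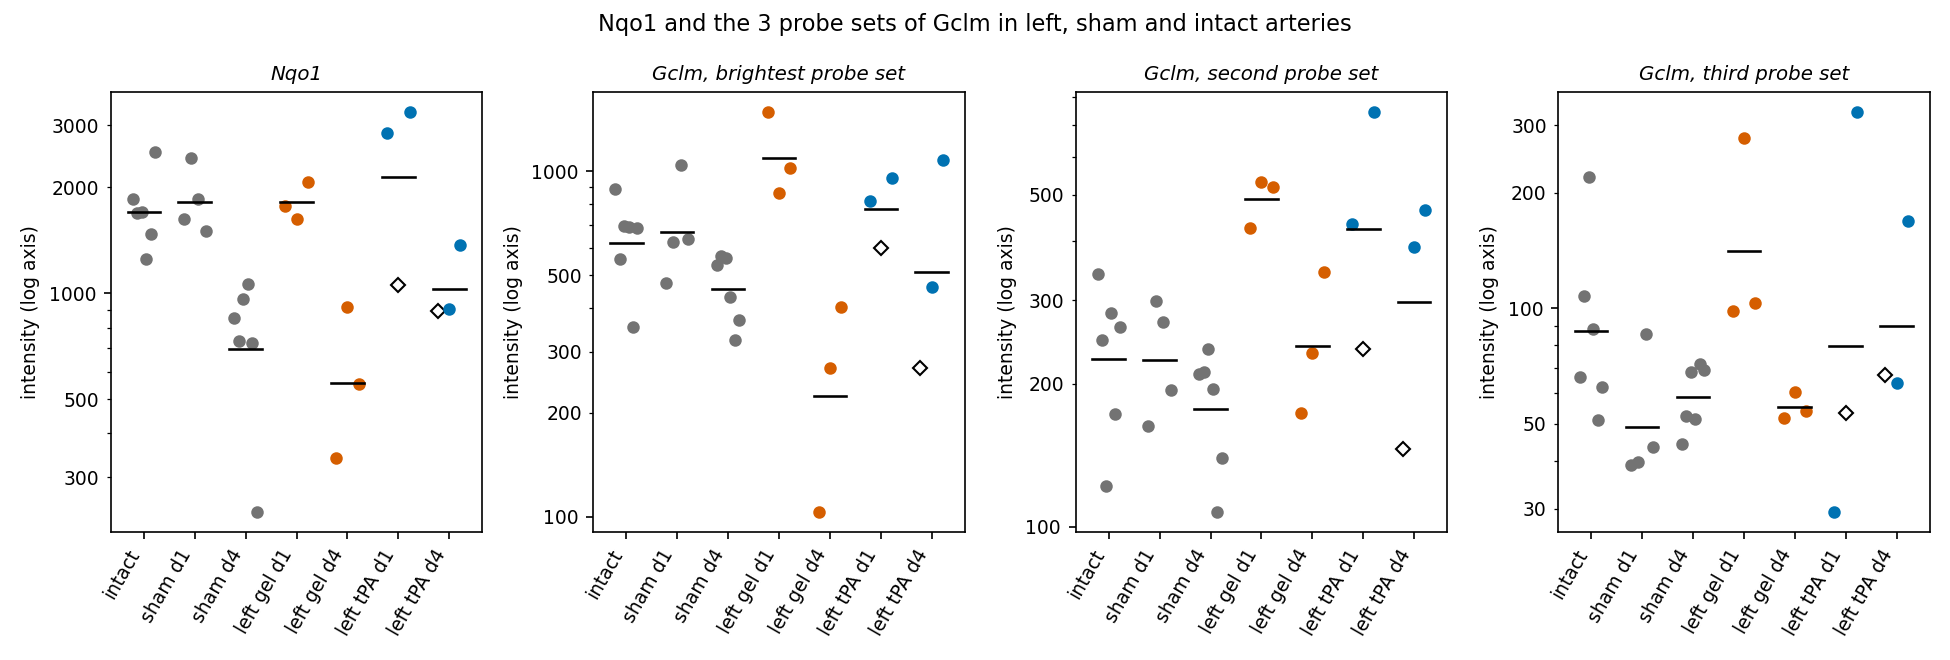
Intensity (log axis) of Nqo1 and of the 3 tested Gclm probe sets on the arrays of intact, sham and injured left arteries (d1 and d4, days 1 and 4); black bars are means of log2 values and open diamonds the left tPA arrays that stood apart. Left gel arrays of day 4 lie below those of day 1 in all 4 panels, and sham arrays of day 4 lie below those of day 1 without overlap for Nqo1.

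Injured left arteries were also set against the right arteries of the same treatment and day. None of the 8 probe sets passed in these 4 comparisons. The share of all probe sets called was 0.549% for gel on day 1 and 5.1% for gel on day 4, and 0.0172% and 0.0343% for tPA on days 1 and 4. At an unadjusted p under 0.05 there were 2, 4, 2 and 1 in that order, beside 16.3%, 17.7%, 9.46% and 7.53% of all probe sets. Under gel on day 4, Hmox1 was 1.78 and Sod2 1.04 higher in the left artery (adjusted p = 0.189 for each), and all 3 left arrays lay above all 3 right arrays for both genes. Nqo1 and the brightest Gclm probe set differed by -1.23 and -1.43 there (adjusted p = 0.117 and 0.0628), and both passed without the 4 tPA arrays, which enter through the shared spread alone (adjusted p = 0.0487 and 0.0391). Under tPA on day 1, Hmox1 was 1.75 and Hp 1.58 higher on the left (adjusted p = 0.41 and 0.295), and without the 4 arrays they were 2.58 and 2.20 higher and passed (adjusted p = 0.025 and 0.0117, against 5.85% of all probe sets). The index was low in the left and high in the right array removed, so the removal widens left minus right for injury-responsive genes by construction, and 2 arrays are then left on each side. Under tPA on day 4, Hp differed by -1.30 (adjusted p = 0.603), and by -0.05 without the 4 arrays, while Hmox1 differed by 0.42 (adjusted p = 0.945), and by 2.25 without them (adjusted p = 0.0609).

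Right arteries differed from sham in 0 of 8 probe sets in each of 4 comparisons. The background was 0.927% and 8.82% for right gel on days 1 and 4 and 0.172% and 0.91% for right tPA. Unadjusted p-values under 0.05 numbered 1, 2, 2 and 4, beside 12.6%, 22.6%, 11.2% and 16.9% of all, so the first 2 counts were near the background. In right tPA arteries of day 4 the differences were 1.47 for Hmox1, 1.58 for Hp, 1.29 for Nqo1 and 1.00 for Sod2 (adjusted p = 0.241, 0.0982, 0.0832 and 0.163). Without the 4 arrays they were 0.41, 0.57, 0.87 and 0.47. Hp passed in that comparison without right tPA replicate 2 of day 4 (2.25, adjusted p = 0.0278). Sham arteries differed from intact ones in 0 of 8 on day 1, against 0.944% of all, with 0 at an unadjusted p under 0.05 (10.7% of all), and in 0 of 8 on day 4, against 0.378%. Nqo1 had the only unadjusted p under 0.05 on day 4, where 10.1% of all did (-1.30, adjusted p = 0.0657), and it passed without sham replicate 4 of day 4 (-1.42, adjusted p = 0.0429) and without the 4 tPA arrays (adjusted p = 0.0219).

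Between days, left tPA arteries differed in 0 of 8, against 1.15% of all, with 3 at an unadjusted p under 0.05 (13.7% of all). Hp was nearest, at -2.15 (adjusted p = 0.0547), and it was -2.39 without the 4 arrays and passed (adjusted p = 0.00791). The change in the injury effect between days passed for 0 of 8 under gel, against 2.42%, and for 0 of 8 under tPA, against 1.36%, with 2 and 1 at an unadjusted p under 0.05, beside 13.6% and 17.8% of all. The largest under gel was the brightest Gclm probe set, at -1.74 (adjusted p = 0.113). In the fit over all 40 arrays, a call on 1 day is thus not shown to differ from the other day, and Hp (without the 4 arrays, for example) and the brightest Gclm probe set (with array weights) passed only under other settings.

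Other genes of these pathways gave a mixed picture. Their counts stand beside 19.2% of all tested probe sets called for left gel against sham on day 4, 3.12% on day 1, and 4.43% and 5.87% for left tPA on days 1 and 4. Of 14 tested heme and iron genes, from a list of 29, 3 rose and 1 fell in left gel against sham arteries on day 4, with a list median of 0.01. Alad, an enzyme of heme synthesis, rose by 1.88 (adjusted p = 0.00837), Slc40a1, the iron exporter ferroportin, by 1.77 (adjusted p = 0.0358) and Cp, the ferroxidase ceruloplasmin, by 0.97 (adjusted p = 0.0447). Urod, which acts later in heme synthesis, fell by 0.69 (adjusted p = 0.0164). In the other 3 comparisons of injured arteries with sham 0 of the 14 passed, with medians of 0.15 (gel, day 1), 0.04 (tPA, day 1) and 0.32 (tPA, day 4). The genes nearest to a call there were Cp under gel on day 1 (1.09, adjusted p = 0.107), Alas2, a heme synthesis enzyme of red cell precursors, under tPA on day 1 (1.10, adjusted p = 0.104), and Alad under tPA on day 4 (1.44, adjusted p = 0.0859).

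Of 11 tested genes of glutathione, thioredoxin and NADPH supply, from a list of 19, 2 rose and 1 fell under gel on day 4 (median 0.13). Tkt and Taldo1, enzymes of the pentose phosphate pathway, rose by 1.32 and 1.12 (adjusted p = 0.000438 and 0.0105), and Txnip, which binds and inhibits thioredoxin, fell by 1.12 (adjusted p = 0.00229). Txnip fell on day 1 as well, by 1.32 (adjusted p = 0.00739), the only call of the list that day (median -0.03). Under tPA no gene of the list passed on day 1 (median 0.27), where Tkt had 0.92 (adjusted p = 0.0538), and Tkt rose on day 4 (0.97, adjusted p = 0.0243, list median 0.45). Nfe2l2, which encodes Nrf2, differed by 0.50 under gel on day 4 and by -0.26 under tPA on day 1 (adjusted p = 0.464 and 0.77).

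Of 11 tested genes for the removal of peroxide and superoxide, from a list of 17, 2 rose under gel on day 4 (median -0.03), a share near the background. They were Ucp2, a mitochondrial carrier (1.33, adjusted p = 0.00236), and Prdx1, a cytosolic peroxiredoxin (1.15, adjusted p = 0.0151). Sod3, the extracellular superoxide dismutase, had -1.04 (adjusted p = 0.0655), and -1.43 under tPA on day 1 (adjusted p = 0.05), neither of which passed. Gpx3, the glutathione peroxidase of plasma, fell under tPA on day 1 (-0.98, adjusted p = 0.0327), the only call of the list there (median -0.26). None of the 11 passed under gel on day 1 (median -0.11) or under tPA on day 4 (median 0.15).

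Phase II enzymes, to which Nqo1 also belongs, conjugate or reduce foreign and reactive molecules. Of 18 others tested, from a list of 26, 9 fell and 1 rose under gel on day 4, with a median of -0.86. Those with the smallest p were Sult1a1, a sulfotransferase (-3.26, adjusted p = 0.000324), Aldh3a1, an aldehyde dehydrogenase (-3.50, adjusted p = 0.00036), and Ephx1, an epoxide hydrolase (-2.05, adjusted p = 0.000745), while Mgst2, a membrane glutathione transferase, rose by 1.63 (adjusted p = 0.000132). Under tPA on day 1, 4 fell and 1 rose (median -0.80), among them Gstm5 (-1.68, adjusted p = 0.0122), Sult1a1 (-2.78, adjusted p = 0.0157), Gsta1 (-2.45, adjusted p = 0.0229) and Gstm2 (-1.55, adjusted p = 0.0268). Under gel on day 1, 2 fell, Gstm2 (-1.76, adjusted p = 0.012) and Gsta3 (-1.25, adjusted p = 0.023), with a median of -0.74. Under tPA on day 4 none passed (median -0.27). Glutathione transferases are a family of similar sequences, and several of these probe sets can detect more than 1 of them.

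Among 5 tested genes of oxidant producing enzymes, from a list of 13, Cyba, a subunit of the NADPH oxidase, and Xdh, xanthine dehydrogenase, rose under gel on day 4 (1.64 and 1.41, adjusted p = 0.00824 and 0.0166). Maoa, monoamine oxidase A, fell there (-1.71, adjusted p = 0.00677) and under gel on day 1 (-2.01, adjusted p = 0.0159), and none of the 5 passed under tPA on either day. The list medians were -0.34 and 0.31 under gel on days 1 and 4 and 0.39 and 0.03 under tPA. Of 18 tested acute phase genes, from a list of 23 set beside Hp, Il1b, the cytokine interleukin 1 beta, rose under gel by 4.08 on day 1 and 4.62 on day 4 and under tPA by 3.63 on day 1 (adjusted p = 0.00569, 0.000128 and 0.0144). C3, a complement protein, rose under gel on day 4 (4.54, adjusted p = 0.000207), and Serpina1, an inhibitor of elastase, fell (-2.85, adjusted p = 0.0265). No other gene of this list passed in these 3 comparisons, and none passed under tPA on day 4. Its medians were -0.03 and 0.09 under gel on days 1 and 4 and 0.49 and 0.11 under tPA.

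Without the 4 arrays that stood apart, more genes of these lists passed. List genes called for left gel against sham on day 4 entered the index by which these arrays were chosen. Larger differences of such genes are thus in part built in, and the calls gained are no independent support. Left tPA and sham differed without the 4 arrays in 11.7% (day 1) and 18.1% (day 4) of all probe sets. Outside the phase II enzymes, the counts of each list were near these shares. Of the 18 phase II enzymes, 9 fell and 1 rose on day 1 (median -1.08), and 8 fell and 1 rose on day 4 (median -0.68). Gsta1 had -3.12 on day 1 and -2.22 on day 4, and Gpx3 had -1.39 on day 1 (adjusted p = 0.000166). Heme and iron genes called were 1 higher on day 1, Alas1 (1.57, adjusted p = 0.0296), and 3 higher on day 4, Slc40a1, Alad and Ireb2 (2.43, 1.94 and 1.98). The glutathione list gave 1 higher on day 1, Tkt (1.05, adjusted p = 0.0214), and 2 higher and 1 lower on day 4. The peroxide list gave 2 lower on day 1 and 2 higher on day 4, the oxidant list 0 and 1 higher, and the acute phase list 3 higher on day 1 and 3 higher and 1 lower on day 4, with Il1b at 4.90 on day 1.

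**Figure D4:**
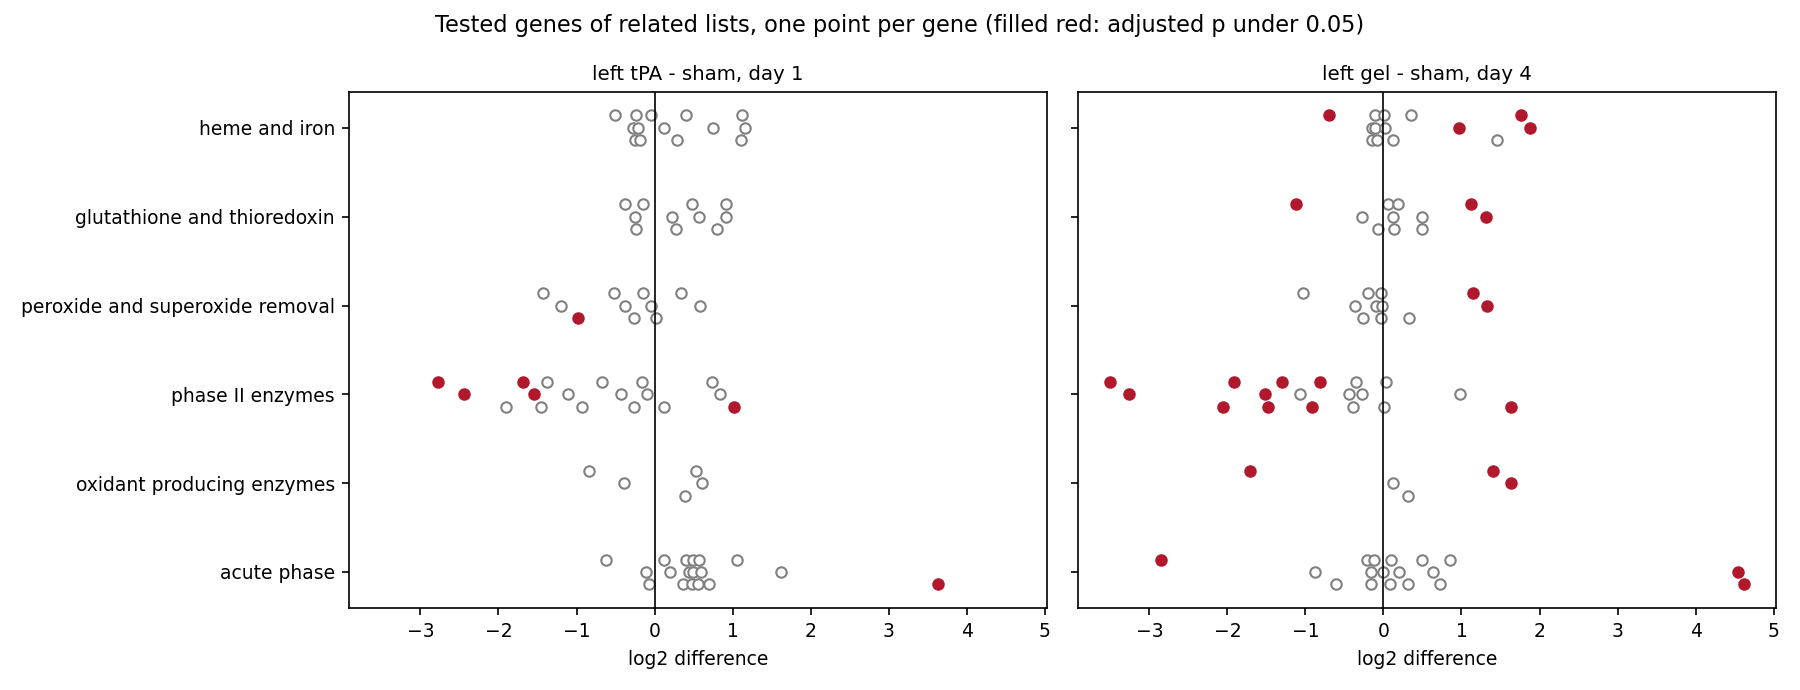
Fitted log2 differences from sham of the tested genes of 6 related lists, for left tPA on day 1 and left gel on day 4; each point is a gene, spread vertically only for legibility, and filled red points have a limma adjusted p under 0.05. Of 18 phase II enzymes 9 are red below 0 for left gel on day 4, with a median of -0.86.

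The genes whose 11 group means most resembled each of the 6 were named by Pearson correlation among 3545 genes, each gene taken by its brightest probe set. For Hmox1 they were Ptpro, a receptor tyrosine phosphatase (0.950), C5ar1, the receptor of complement C5a (0.943), and Plaur, the urokinase receptor (0.942). For Hp they were Ptgfr, a prostaglandin receptor (0.938), Slc25a20, a mitochondrial carnitine carrier (0.928), and S100a9, a calcium-binding protein abundant in neutrophils (0.899). For Sod2 they were Mrto4 (0.953), Il1b (0.948) and Litaf (0.945), and for Txnrd1 Arhgap30 (0.947), Timp1, an inhibitor of metalloproteinases (0.937), and Hmga1 (0.915). After Gclm, Nqo1 was most like Atp5f1a, a subunit of ATP synthase (0.841), and Hspa9, a mitochondrial chaperone (0.836). Gclm was most like Mybpc2 (0.894), a gene of fast skeletal muscle, Hsd17b8 (0.885) and Atp5f1a (0.869). Among the 6 themselves, the means of Hmox1, Hp, Sod2 and Txnrd1 correlated at 0.735 to 0.916 with each other and at -0.113 to 0.225 with those of Nqo1 and Gclm. Gclm stands there for its brightest probe set alone. The second Gclm probe set had its highest means in left gel and left tPA arteries of day 1 (8.94 and 8.73 on the log2 scale), and its correlations were not computed.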

How the data were processed

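Per the labels' protocols, RNA was extracted with a column kit from 3 pooled vessels for each array and labelled with biotin. The authors deposited a linear intensity per probe set of an Affymetrix rat U34 array (part A). The sources used here do not give the summary software or any scaling, and since all arrays share nearly 1 trimmed mean, a value tells a gene's share of its array's signal. Values were raised to a floor of 23.3, the 20th percentile over all arrays, before log2 was taken, which understates changes of dim genes. The 2913 dimmest probe sets by mean were left out and 5827 tested in R 4.3.3 with limma 3.58.1 (lmFit, contrasts.fit and eBayes) on 11 group means over all 40 arrays, with Benjamini-Hochberg adjustment within each of 22 comparisons. The fit was tested on simulated data. Gene symbols came from the supplied platform annotation.

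The members, lists and alternatives were chosen with earlier results of these data known. All probe sets with 1 member symbol are described, the brightest representing a gene. From each list up to 4 genes with the smallest p are named in a comparison. Nfe2l2 was added to them, and the markers, the index and the 4 arrays were likewise chosen with the data in view.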

Additional observations from a re-analysis of the deposited data

Results flagged for a closer look

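In 24 combinations of a tested probe set and a group of 4 or 6 arrays, 3 had an array whose gap to its nearest neighbour exceeded the 95% critical share of the group's range, where chance flags about 1 in 20 groups. Nqo1 read 239.9 in sham day 4 replicate 6, below 724.6 to 1067.0 in the other 5 arrays. Without it the fall of Nqo1 in sham from day 1 to day 4 was -1.09 in place of -1.39 (adjusted p = 0.0454). Sod2 read 411.5 in sham day 4 replicate 1, above 207.4 to 253.7 in the other 5. The third Gclm probe set read 85.7 in sham day 1 replicate 3, above 39.1 to 43.4 in the other 3.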

How the results depend on the processing

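The rises of Hmox1 and Sod2 in left gel against sham arteries on day 4 passed under all 14 other settings and in all 9 fits without 1 array, and the rise of Hp passed in all 14 settings and 6 of the 9 fits. Most of the 14 settings leave these differences as they were and act on them through the spread or the adjustment alone. These settings leave out tPA arrays or right gel day 1 array 3, or average arrays of day 1. Others change the filter or the floor, set near-zero values as missing, moderate with trend, or fit only the groups compared. The differences themselves could move only with quantile normalization, median scaling, array weights and the replicate block. Passing under all 14 is therefore not a set of independent checks. No called difference changed its sign. Counts of called probe sets among the 8 that moved by over 1.5 times are given first. With array weights, left gel against sham gave 7 on day 1 and 5 on day 4, left tPA against sham 3 and left tPA against gel 2 on day 4, left against right under gel 4 on day 1 and 3 on day 4, right gel and sham against sham and intact 1 each on day 4, left gel between days 4 and left tPA 1, and the 3 differences of effects 1, 1 and 2. With only the groups compared, left gel against sham gave 2 on day 1, left against right under gel 2 and right gel against sham 2 on day 4, left gel between days 0, and the tPA effect by day 1. Without the 4 tPA arrays that stood apart, left gel against sham gave 4 on day 1, left tPA against sham 5 and 2, left against right 2 under gel on day 4 and 2 under tPA on day 1, right gel against sham 1, sham against intact 1, left tPA between days 1, and both tPA effects by day 1. The replicate block gave 1 for left against right under gel on day 4, 0 for sham between days (Nqo1 -1.25, adjusted p = 0.0711), 1 for the gel effect by day (Gclm -1.92, adjusted p = 0.0328), 4 for left gel against sham on day 4 (Gclm -1.24, adjusted p = 0.0149, added) and 2 for left tPA against sham on day 1 (Sod2 lost). Same-numbered arrays deviated together (all correlations over 0.1) in 1 of 19 comparisons of 2 groups, and the labels give no shared animals, so the numbers were not taken to pair arrays. A floor at the 40th percentile gave 1 for left against right under gel, right gel against sham and left tPA between days. A filter that leaves out 50% gave 1 for sham day 4 against intact and for left tPA between days. Left tPA between days also gave 1 with quantile normalization, with trend and robust moderation and without right gel day 1 array 3, an array with 6.57% of values at the floor, and sham between days gave 0 with quantile normalization. Averaging left gel day 1 arrays 1 and 3 gave 1 for left gel between days, and averaging the 3 most alike pairs, both chosen after seeing the data, gave 0 for left tPA against sham on day 1, 1 for left gel between days and 0 for sham between days. Smaller moves were 4 with quantile normalization and with no filter in the day 4 comparison of left gel with sham, and 2 for left tPA against sham on day 1 with quantile normalization, median scaling, no filter, array weights and only the groups compared. With 1 array left out, counts ranged from 0 to 2 for left gel against sham on day 1, 2 to 3 on day 4, 0 to 5 (day 1) and 0 to 2 (day 4) for left tPA against sham, 0 to 1 for left against right under gel on day 4, right tPA against sham on day 4, sham day 4 against intact, left tPA between days, sham between days and the tPA injury effect by day, and 0 to 2 for left gel between days. The causes were not tested. Groups of 3 pools limit what could be called, and dim probe sets such as the second ones of Hmox1, Nqo1 and Txnrd1 lay partly at the floor.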
